A study of Mus musculus with 6 samples.

Results

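The immunoglobulin chain genes are the constant region genes, the variable segments and the J chain gene from which antibody transcripts are made. Members were chosen by name: every gene whose symbol begins with Ighv, Igkv, Iglv, Ighg, Igha, Ighm, Ighd, Ighe, Igkc or Iglc, or equals Jchain. This gave 138 of the 25102 genes in the table. One of the 138, Ighmbp2, is a DNA and RNA helicase gene on chromosome 19 that only shares the first letters. It was kept apart, which left 137 immunoglobulin genes: 8 heavy chain constant genes, 5 light chain constant genes, 45 Ighv, 75 Igkv and 3 Iglv segments, and Jchain. GENCODE M21 lists 185 Ighv, 160 Igkv and 3 Iglv genes, pseudogenes included. The others, and all diversity segments, were not analysed here.

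The samples were 6 livers of male C57BL/6J mice, 3 given DEN+CCl4 and 3 controls. The DEN+CCl4 mice, aged 2 weeks at the start, received diethylnitrosamine (DEN), a carcinogen activated in hepatocytes, in 1 injection of 1 mg/kg into the peritoneum. From about 6 weeks later they were given carbon tetrachloride (CCl4), a hepatocyte toxin, at 0.2 mL/kg, 2 times a week for at most 14 weeks, as a model of hepatocellular carcinoma. The controls were mice of the same strain, sex and starting age, for which the labels name no injection. The labels do not say whether tumour or surrounding liver was sampled, and samples are told apart by a replicate number alone, so p-values reflect the scatter among these 6 samples, which may be technical. Levels are FPKM, fragments scaled to gene length and library size, as the authors deposited them, and read depth is unknown. Within each group, values are listed in the order of replicates 1, 2 and 3.

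An antibody has heavy chains and light chains, each with a constant region and a variable region. In a developing B cell a variable segment is joined to shorter segments near a constant gene, and the finished transcript carries both parts. The heavy chain constant gene sets the isotype: IgM and IgD on naive B cells, and IgG, IgA or IgE after class switching. Plasma cells, the end stage of the lineage, make very large amounts of these transcripts. In the liver, B lineage cells are few beside hepatocytes.

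DEN+CCl4 replicate 3 stood apart in scale. Mitochondrially encoded transcripts took 64.2% of its FPKM, against 26.6% to 43.0% in the other libraries, and its median tested gene stood at 1.19 FPKM, against 3.43 to 4.46 FPKM elsewhere. It had 16447 genes above 0, against 19260 to 20634 in the others. Levels are given as deposited, and, where it changes what is seen, also after median-ratio scaling, in which the typical gene is set equal across libraries. Over the tested genes, the median of the log2 fold changes was -0.27 as deposited and 0.01 after that scaling. Alb, the albumin gene that defines hepatocytes, was at 11748, 24459 and 7482 FPKM in the DEN+CCl4 livers, and at 15311, 13751 and 23556 FPKM in the controls. Apoa1, the main apolipoprotein gene of high density lipoprotein, was at 10250, 35125 and 4111 FPKM in the DEN+CCl4 livers and 12182, 10628 and 12689 FPKM in the controls.

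Summed over the 137 genes, immunoglobulin transcripts came to 262, 707 and 244 FPKM in the DEN+CCl4 livers, against 115, 125 and 105 FPKM in the controls. Most of each sum was a single gene, Igkc. Without Igkc the sums were 65.0, 128 and 79.8 FPKM in the DEN+CCl4 livers, against 38.2, 32.8 and 30.6 FPKM in the controls. All DEN+CCl4 sums lay above all control sums, with and without Igkc. After median-ratio scaling the sums over the 137 genes were 205, 516 and 686 in the DEN+CCl4 livers and 98.6, 108 and 83.6 in the controls. In bulk tissue, more cells of a type and more RNA per cell cannot be told apart. Of the 137 genes, 18 were above all 3 controls in all 3 DEN+CCl4 livers and 0 were below them. Over all genes in the table, 3.8% were above all controls and 4.03% below. After scaling the counts were 21 and 0, against 7.63% and 4.6% of all genes. The mean was higher in DEN+CCl4 liver for 101 of the 137 genes and lower for 36. No such count was made over all genes, so these numbers have no baseline. Of the 101, 89 were variable segments, most of them near 0, where a single library can set the direction of the mean.

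Most members were too low for the gene test. It covered genes averaging 1 FPKM or more, a filter that 14 of the 137 passed: 7 heavy chain constant genes, 4 light chain constant genes and 3 variable segments. A member near 0 in controls needed high DEN+CCl4 values to pass, so counts over these 14 carry no weight of their own. With limma's moderated test on log2(FPKM + 1), 1 of the 14 was higher in DEN+CCl4 liver at an adjusted p under 0.05, against 0.833% of the 8528 genes tested. It was Ighg3. None was lower, against 0.645% of all tested genes. At an unadjusted p under 0.05 there were 7 higher and 0 lower, against 2.53% and 5.07% of all tested genes.

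**Figure D1:**
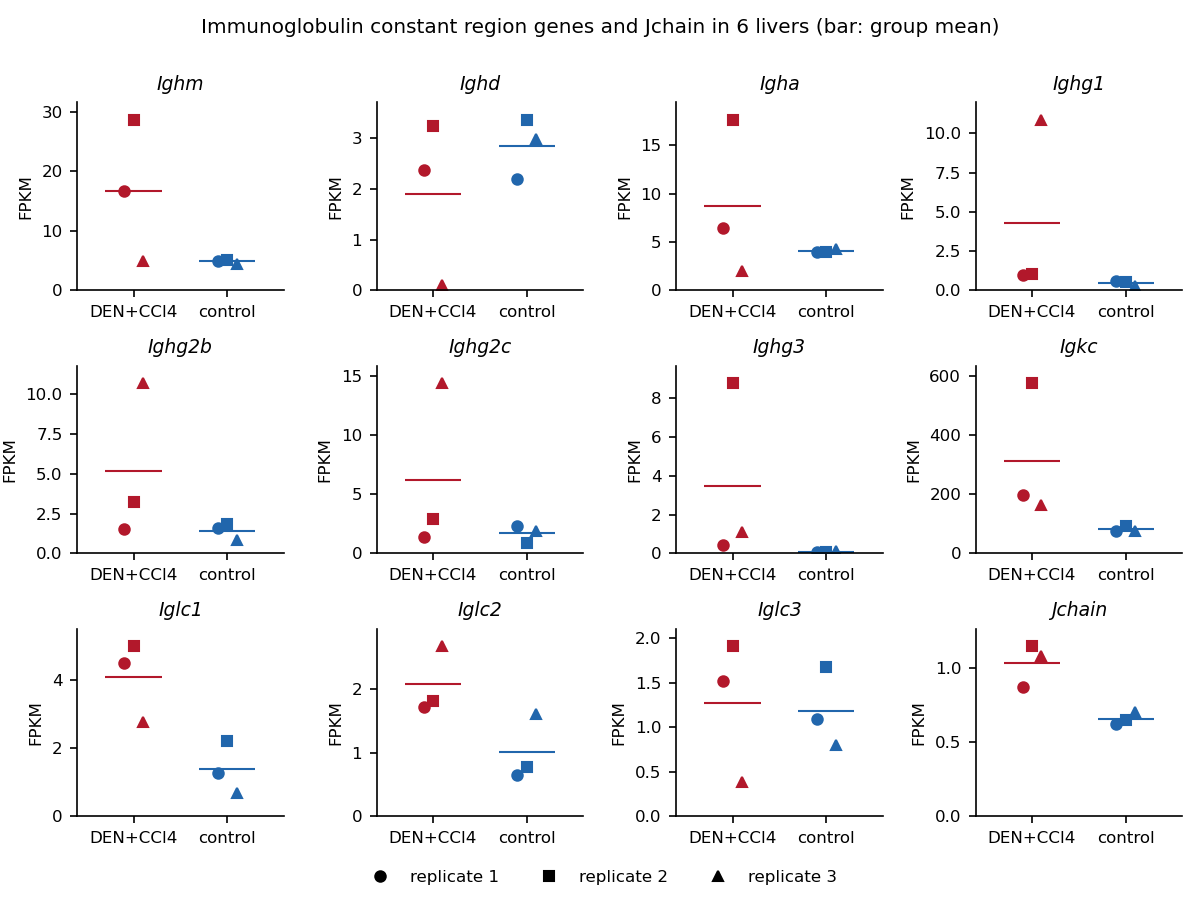
Level in FPKM (vertical axis, linear from 0, a scale of its own in each panel) of 11 constant region genes and Jchain in 3 DEN+CCl4 and 3 control livers; points are libraries with a marker for each replicate number, and bars are group means. For Igkc, Ighg1, Ighg3, Iglc1, Iglc2 and Jchain every DEN+CCl4 point is above every control point, while Ighg1, Ighg2b and Ighg2c are highest in DEN+CCl4 replicate 3 and Ighm, Igha, Ighg3 and Igkc in DEN+CCl4 replicate 2.

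Igkc, the constant region gene of the kappa light chain, was the most abundant member in every library. It lies on chromosome 6 (70726435 to 70726966, GRCm38, plus strand). Its level was 197, 579 and 164 FPKM in the DEN+CCl4 livers, against 76.8, 92.5 and 74.7 FPKM in the controls. Each DEN+CCl4 liver was above every control, and replicate 2 was highest. The means were 313 ± 231 FPKM in DEN+CCl4 liver and 81.4 ± 9.74 FPKM in controls (SD, n = 3 each), 3.85 times as high. The log2 fold change was 1.70 with a standard error of 1.04 (limma adjusted p = 0.838), so Igkc did not pass the gene test. The exact two-sided permutation test of 3 against 3 gave p = 0.1, the smallest value this design allows. After median-ratio scaling Igkc stood at 154, 422 and 461 in the DEN+CCl4 livers and 65.9, 80.0 and 59.3 in the controls, and the spread within the DEN+CCl4 group was smaller relative to its mean (log2 fold change 2.18, limma adjusted p = 0.453). The coding end of Igkc is shown because the cysteine codon in capitals is the last codon before the stop and encodes the residue that bonds the light chain to the heavy chain (GENCODE M21 on GRCm38, plus strand, chr6:70726692-70726754).
Igkc: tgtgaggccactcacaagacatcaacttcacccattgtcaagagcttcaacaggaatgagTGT

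The lambda constant genes, all on chromosome 16, were far lower than Igkc. Iglc1 was at 4.51, 5.02 and 2.76 FPKM in the DEN+CCl4 livers, against 1.29, 2.23 and 0.68 FPKM in the controls (log2 fold change 1.11, limma adjusted p = 0.516). Iglc2 was at 1.72, 1.81 and 2.68 FPKM in DEN+CCl4 liver and 0.65, 0.77 and 1.61 FPKM in controls (log2 fold change 0.63, limma adjusted p = 0.934). For both genes the lowest DEN+CCl4 value lay above the highest control value, and neither passed the test. Iglc3 was at 1.52, 1.92 and 0.39 FPKM in DEN+CCl4 liver, against 1.09, 1.68 and 0.80 FPKM in controls, with overlapping groups. The coding sequences of Iglc2 and Iglc3 are 95.9% identical, so reads may have been assigned between them, whereas Iglc1 is 73.5% and 74.8% identical to them. Iglc4 was at 0.16 FPKM in DEN+CCl4 replicate 2 and listed at 0 in the other libraries. Kappa took 96.2%, 98.5% and 96.6% of the light chain constant FPKM in the DEN+CCl4 livers, and 96.2%, 95.2% and 96.0% in the controls. Kappa, known as the main light chain of the mouse, dominated in all 6 livers.

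Ighm encodes the constant region of IgM, the first isotype a B cell makes. Its level was 16.7, 28.7 and 4.87 FPKM in the DEN+CCl4 livers, against 4.94, 5.13 and 4.52 FPKM in the controls. Replicates 1 and 2 lay above all controls, and replicate 3 lay among them as deposited. After median-ratio scaling Ighm was at 13.1, 20.9 and 13.7 in DEN+CCl4 liver and 4.23, 4.44 and 3.59 in controls, with no overlap. The log2 fold change was 1.31 with a standard error of 0.70 (limma adjusted p = 0.717), and 1.71 after scaling (limma adjusted p = 0.267). It was 0.80 without DEN+CCl4 replicate 2 (limma adjusted p = 0.723) and 1.97 without replicate 3 (limma adjusted p = 0.249). None of these passed.

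Ighd, the constant gene of IgD, lies next to Ighm and is made with it by naive B cells through splicing of the same long transcript. It stood at 2.37, 3.24 and 0.10 FPKM in the DEN+CCl4 livers, against 2.19, 3.37 and 2.98 FPKM in the controls. The groups overlapped (log2 fold change -0.61, limma adjusted p = 0.984), and the lower mean rested on replicate 3, without which the log2 fold change was -0.013 (limma adjusted p = 0.990). The ratio of Ighm to Ighd, in which the scale of a library cancels, was 7.04, 8.87 and 48.7 in the DEN+CCl4 livers and 2.26, 1.52 and 1.52 in the controls. All DEN+CCl4 ratios lay above all control ratios (exact two-sided permutation p = 0.1, the smallest possible). This ratio was chosen after the values were seen. In DEN+CCl4 replicate 3 it rests on Ighd at 0.10 FPKM, a value near 0 of unknown precision.

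Igha encodes the constant region of IgA, the antibody of mucosal surfaces and bile. It was at 6.48, 17.7 and 2.02 FPKM in the DEN+CCl4 livers, against 3.92, 3.97 and 4.26 FPKM in controls. Replicate 3 lay below the controls as deposited and, at 5.67, above their 3.36 to 3.43 after median-ratio scaling. The log2 fold change was 0.57 (limma adjusted p = 0.996), and -0.09 without DEN+CCl4 replicate 2. Jchain, on chromosome 5, encodes the joining protein of polymeric IgA and IgM. It was at 0.87, 1.15 and 1.08 FPKM in DEN+CCl4 liver and 0.62, 0.65 and 0.70 FPKM in controls. The groups did not overlap (1.03 ± 0.146 against 0.657 ± 0.0404 FPKM, SD, n = 3 each; exact two-sided permutation p = 0.1, the smallest possible), and the mean of Jchain was under the filter of the gene test. Per length, Jchain was below Igha in every library. Ighe, of IgE, was at 0.03 FPKM in control replicate 3 and listed at 0 in the other libraries.

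The IgG constant genes gave a different picture in each DEN+CCl4 liver. They differ by the hinge, the short exon between the arms and the stem of the heavy chain, whose cysteines bond the heavy chains to each other. The hinge exons are shown because they set the subclasses apart, with in-frame cysteine codons in capitals (GENCODE M21 on GRCm38, chromosome 12, minus strand). They lie at chr12:113360529-113360576 for Ighg3, chr12:113329844-113329882 for Ighg1, chr12:113307261-113307326 for Ighg2b and chr12:113288263-113288325 for Ighg2c.
Ighg3: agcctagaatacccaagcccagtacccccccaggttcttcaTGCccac
Ighg1: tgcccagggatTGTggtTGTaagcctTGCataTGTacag
Ighg2b: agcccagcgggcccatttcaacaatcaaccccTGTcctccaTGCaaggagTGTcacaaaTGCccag
Ighg2c: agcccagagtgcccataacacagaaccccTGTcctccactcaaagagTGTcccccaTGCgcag
The exons differ in length, from 39 to 66 bases, and hold 1 cysteine codon in Ighg3, 4 in Ighg1, 4 in Ighg2b and 3 in Ighg2c. At most 5.49% of the 50-base words of a heavy chain constant gene occur in another annotated immunoglobulin gene, so reads of the subclasses can largely be told apart.

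Ighg3 was called higher in DEN+CCl4 liver, but passed the filter only through that group, and the call did not hold in most other settings. IgG3 is a subclass often made in responses to polysaccharides. The gene was at 0.44, 8.82 and 1.11 FPKM in the DEN+CCl4 livers, against 0.09, 0.05 and 0.10 FPKM in the controls. Every DEN+CCl4 value was above every control, and replicate 2 was the highest by far. The log2 fold change was 1.52 with a standard error of 0.39 (limma adjusted p = 0.0151), on the log2(FPKM + 1) scale, which understates the change of a gene this low. The call was lost without DEN+CCl4 replicate 2 (0.69, limma adjusted p = 0.408), without replicate 3 (1.80, limma adjusted p = 0.608), without any 1 control (1.50 to 1.54, limma adjusted p = 0.180 to 0.378) and after median-ratio scaling (1.69, limma adjusted p = 0.453). It was also lost with a pseudocount of 0.1 (limma adjusted p = 0.550), no filter (limma adjusted p = 0.856), TPM (limma adjusted p = 0.0903) and no trend (limma adjusted p = 0.841). The direction held in each of these settings.

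Ighg1, the constant gene of IgG1, was at 0.96, 1.02 and 10.9 FPKM in the DEN+CCl4 livers, against 0.58, 0.52 and 0.31 FPKM in the controls. The groups did not overlap, and replicate 3 was far above the other DEN+CCl4 livers although its median gene was the lowest. The log2 fold change was 1.30 with a standard error of 0.44 (limma adjusted p = 0.130). It passed without DEN+CCl4 replicate 1 (1.74, limma adjusted p = 0.0173) and without replicate 2 (1.72, limma adjusted p = 0.0220), and was 0.44 without replicate 3 (limma adjusted p = 0.632). Like Ighg3, Ighg1 cleared the filter only through the DEN+CCl4 group, so these calls carry no weight of their own.

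Ighg2b stood at 1.54, 3.26 and 10.7 FPKM in the DEN+CCl4 livers, against 1.58, 1.83 and 0.85 FPKM in controls (log2 fold change 1.08, limma adjusted p = 0.578). Ighg2c, which C57BL/6 mice carry in place of Ighg2a, was at 1.42, 2.89 and 14.5 FPKM in DEN+CCl4 livers and 2.35, 0.88 and 1.88 FPKM in controls (log2 fold change 1.00, limma adjusted p = 0.714). Both overlapped with the controls through DEN+CCl4 replicate 1, and both were highest in replicate 3. Without replicate 3 the log2 fold changes were 0.47 for Ighg2b and 0.22 for Ighg2c.

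**Figure D2:**
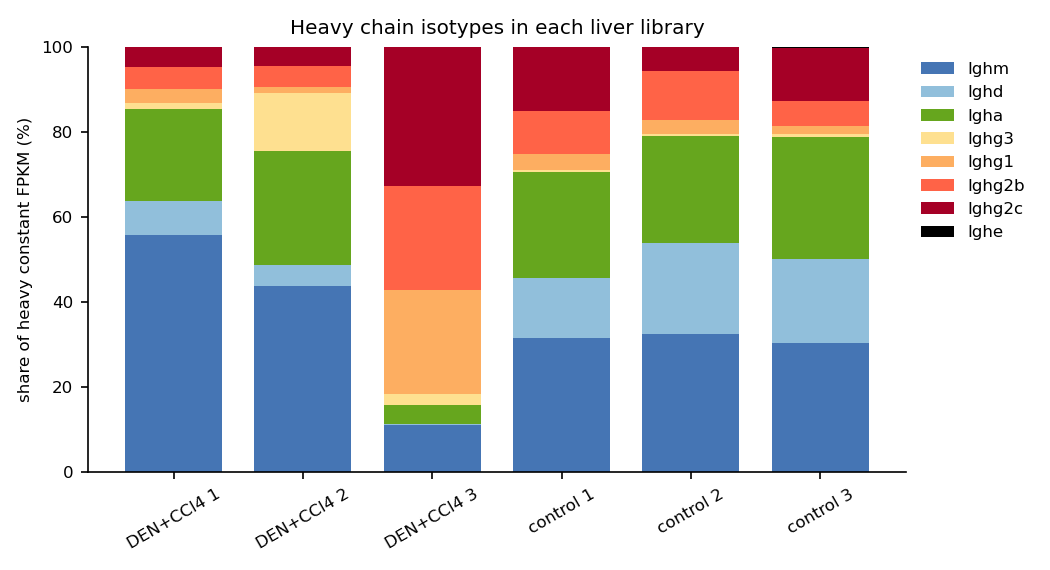
Share of the summed heavy chain constant FPKM (vertical axis, percent) taken by each constant gene in the 3 DEN+CCl4 livers (left) and the 3 control livers (right). The 4 IgG genes together take 84.2% in DEN+CCl4 replicate 3, against 14.6% to 29.4% in the other 5 libraries, and Ighm takes 55.8% and 43.8% in DEN+CCl4 replicates 1 and 2, against 30.3% to 32.6% in the controls.

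Within a library, isotype shares do not depend on its scale. The heavy chain constant genes summed to 29.9, 65.6 and 44.2 FPKM in the DEN+CCl4 livers, against 15.7, 15.8 and 14.9 FPKM in the controls. The 3 controls resembled each other: Ighm took 30.3% to 32.6% of the sum, Igha 25.0% to 28.5%, Ighd 14.0% to 21.4% and the IgG genes 20.8% to 29.4%. DEN+CCl4 replicate 1 had 55.8% Ighm, 21.7% Igha, 7.93% Ighd and 14.6% IgG. Replicate 2 had 43.8% Ighm, 26.9% Igha, 4.94% Ighd and 24.4% IgG. Replicate 3 had 11.0% Ighm, 4.57% Igha, 0.226% Ighd and 84.2% IgG.

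The subclasses within IgG also differed between the DEN+CCl4 livers. Ighg3 took 10.1%, 55.2% and 2.98% of the IgG FPKM in the DEN+CCl4 livers, against 1.96%, 1.52% and 3.18% in the controls. In replicate 3 Ighg2c took 38.9%, Ighg1 29.2% and Ighg2b 28.9%. The share of Ighd was below that of every control in each DEN+CCl4 liver. The mean IgG share was 17.3 percentage points higher in DEN+CCl4 liver and rested on replicate 3, without which it was 4.27 percentage points lower (-4.27).

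B cell markers did not separate the groups. All 15 genes of that list were analysed, 3 were tested and 0 passed limma's test in either direction (0 at an unadjusted p under 0.05). Of the 15, 0 were above and 0 below all controls in every DEN+CCl4 liver, against 3.8% and 4.03% of all genes. The summed level was 11.2, 13.5 and 2.28 FPKM in the DEN+CCl4 livers, against 10.7, 10.3 and 9.04 FPKM in controls. Cd79a, a signalling chain of the B cell receptor, was at 3.39, 3.18 and 0.33 FPKM in DEN+CCl4 livers and 1.98, 3.03 and 2.45 FPKM in controls. Cd72, a B cell surface receptor, was at 1.69, 3.93 and 1.01 FPKM in DEN+CCl4 livers and 3.69, 1.43 and 1.67 FPKM in controls. Ms4a1, the gene of CD20, was at most 0.12 FPKM in any library. The immunoglobulin sum was 23.3, 52.5 and 107 times the B cell sum in the DEN+CCl4 livers, and 10.8, 12.2 and 11.7 times in the controls. Igkc was 58.0, 182 and 498 times Cd79a in DEN+CCl4 liver, against 38.8, 30.5 and 30.5 times in controls (exact two-sided permutation p = 0.1, the smallest possible). These ratios, free of library scale, were chosen after the values were seen. Igkc makes up most of the immunoglobulin sum and Cd79a belongs to the B cell list, so the ratios are not independent. In DEN+CCl4 replicate 3 the Igkc ratio rests on Cd79a at 0.33 FPKM, a low value of unknown precision.

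**Figure D3:**
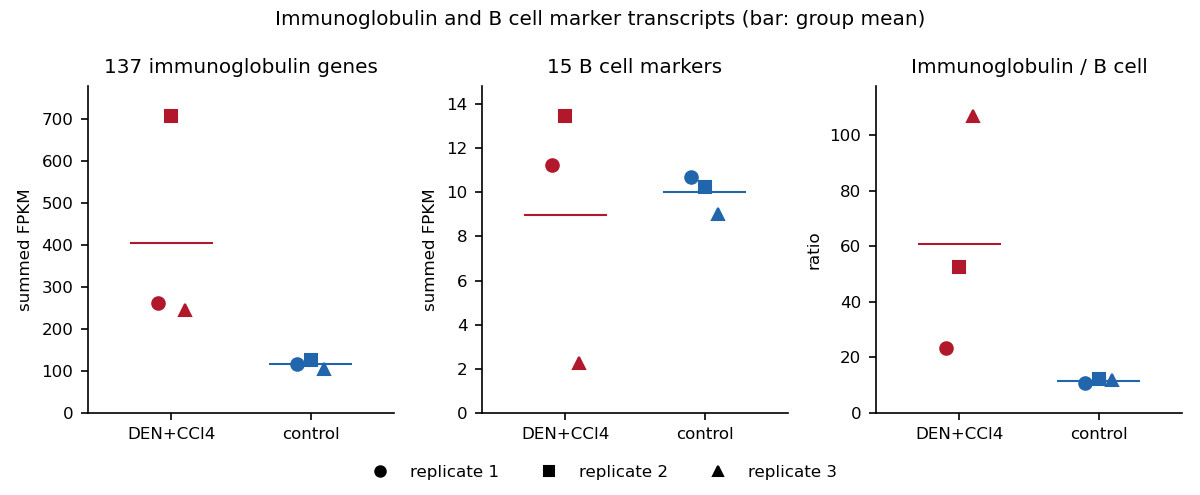
Summed FPKM of the 137 immunoglobulin genes (left), summed FPKM of 15 B cell markers (middle) and their ratio (right) in 3 DEN+CCl4 and 3 control livers; points are libraries with a marker for each replicate number, bars are group means and all axes start at 0. The immunoglobulin sum and the ratio are above all controls in each DEN+CCl4 liver, while the B cell sum of DEN+CCl4 replicate 3 is the lowest at 2.28 FPKM.

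Of the plasma cell list, 14 of 15 genes were analysed, 7 were tested and 0 passed in either direction (0 at an unadjusted p under 0.05), with a median log2 fold change of -0.21 against -0.27 over all tested genes. Above all controls in every DEN+CCl4 liver were 2 of the 14 and below them 0, against 3.8% and 4.03% of all genes. After median-ratio scaling the counts were 4 and 0, against 7.63% and 4.6% of all genes. Prdm1, the transcription factor gene that drives plasma cell formation, was at 0.08, 0.12 and 0.10 FPKM in the DEN+CCl4 livers, against 0.04, 0.02 and 0 FPKM in controls. Tnfrsf17, the plasma cell receptor BCMA, was at 0.16 FPKM in DEN+CCl4 replicate 3 and listed at 0 in the other 5 libraries. Mzb1, a chaperone of antibody assembly, was at 1.11, 1.09 and 0.06 FPKM in DEN+CCl4 livers and 0.66, 0.34 and 0.32 FPKM in controls. Fkbp11, a folding enzyme of secretory cells, was at 23.0, 107 and 20.1 FPKM in DEN+CCl4 livers and 16.5, 12.1 and 13.1 FPKM in controls (log2 fold change 1.36, limma adjusted p = 0.870). Xbp1, the regulator of the secretory pathway, was at 35.3, 76.6 and 2.72 FPKM in DEN+CCl4 livers and 20.9, 24.5 and 28.1 FPKM in controls, with a higher mean but a negative log2 difference (-0.21, limma adjusted p = 0.996). Derl3 averaged 3.06 ± 4.52 FPKM in DEN+CCl4 livers and 1.15 ± 0.767 FPKM in controls, and Cd38 1.84 ± 0.899 and 1.56 ± 0.305 FPKM. Irf4 averaged 0.133 and 0.0567 FPKM in DEN+CCl4 livers and controls, and Slamf7 0.14 and 0.09 FPKM. Irf4 and Slamf7 lay above all controls only after median-ratio scaling. The remaining members had lower or equal means. Eaf2 averaged 0.0633 and 0.10 FPKM in DEN+CCl4 livers and controls. Sdc1 averaged 8.02 ± 4.10 FPKM in DEN+CCl4 livers and 10.7 ± 2.37 FPKM in controls (SD, n = 3 each). Txndc5 averaged 17.8 ± 9.24 and 22.7 ± 3.64 FPKM in DEN+CCl4 livers and controls, Ell2 1.60 ± 1.05 and 2.19 ± 0.215 FPKM, and Pou2af1 0.33 ± 0.238 and 0.33 ± 0.128 FPKM. Hepatocytes also express Xbp1, Fkbp11, Txndc5 and Sdc1 of this list, so its summed level, 99.2, 231 and 35.8 FPKM in DEN+CCl4 livers against 80.6, 67.8 and 84.9 FPKM in controls, is no measure of plasma cells.

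Receptors that bind or carry antibody were also listed. Of 9 analysed, 6 were tested and 0 passed (0 at an unadjusted p under 0.05). Pigr, which carries polymeric IgA into bile, was at 66.4, 23.0 and 33.3 FPKM in DEN+CCl4 livers, against 119.7, 80.1 and 75.2 FPKM in controls, below all of them. After median-ratio scaling the groups overlapped (log2 fold change as deposited -1.25, limma adjusted p = 0.979). Fcgrt, the neonatal Fc receptor that protects IgG from breakdown, was at 22.6, 12.2 and 4.64 FPKM in DEN+CCl4 livers and 31.7, 17.5 and 31.1 FPKM in controls (log2 fold change -1.15, limma adjusted p = 0.946). Of 19 analysed genes for homing, survival and switching of B lineage cells, 4 were tested and 0 passed (0 at an unadjusted p under 0.05). Above all controls in every DEN+CCl4 liver was 1 of the 19 and below them 0, against 3.8% and 4.03% of all genes. After median-ratio scaling the counts were 3 and 0, against 7.63% and 4.6%. The 1 gene as deposited was Tnfrsf13b, the receptor TACI for the survival factors BAFF and APRIL. It was at 0.15, 0.31 and 0.12 FPKM in DEN+CCl4 livers and 0, 0.09 and 0.11 FPKM in controls, all near 0. The chemokine gene Cxcl12 was at 19.9, 8.23 and 1.16 FPKM in DEN+CCl4 livers, against 13.1, 16.4 and 13.0 FPKM in controls. Ccl21a, a lymphoid chemokine gene, was at 4.55, 5.46 and 0 FPKM in DEN+CCl4 livers, against 1.98, 4.29 and 1.20 FPKM in controls. Of the genes for rearrangement and mutation of antibody genes, 5 were analysed and 0 passed the filter, so none was tested. Ung, a uracil repair enzyme used in class switching, was at 0.15 to 1.52 FPKM over the 6 libraries, and Vpreb3, a chaperone gene of early B cells, at 0 to 1.35 FPKM.

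Markers of other cell types were read as well. Red cell genes summed to 447, 2649 and 142 FPKM in the DEN+CCl4 livers, against 639, 236 and 364 FPKM in controls, highest in replicate 2, with the alpha globin genes Hba-a1 and Hba-a2 at 860 and 863 FPKM. As deposited, that liver also had the most Igkc, Ighm, Igha and Ighg3, although after median-ratio scaling Igkc was highest in replicate 3. The sum is carried by the globin genes. Alas2, the haem synthesis enzyme gene of red cell precursors, was at 30.2, 12.2 and 0.79 FPKM in DEN+CCl4 livers, against 30, 14.2 and 29.0 FPKM in controls. Of 5 red cell genes 0 passed the test (0 at an unadjusted p under 0.05). T cell genes summed to 7.19, 11.6 and 14.97 FPKM in DEN+CCl4 livers and 4.83, 6.13 and 6.76 FPKM in controls. Of the 12, 5 were above all controls in every DEN+CCl4 liver, both as deposited (3.8% of all genes) and after median-ratio scaling (7.63% of all genes). Of these 12, 3 were tested and 0 passed (0 at an unadjusted p under 0.05). Trbc2, a T cell receptor constant gene, was highest in DEN+CCl4 replicate 3, at 8.74 FPKM, as were Ighg1, Ighg2b and Ighg2c, whereas Ighg3 was highest in replicate 2. Trbc1 was at 0.90, 1.30 and 2.02 FPKM in DEN+CCl4 livers and 0.33, 1.79 and 0.89 FPKM in controls. Kupffer cell genes summed to 120, 76.4 and 48.6 FPKM in DEN+CCl4 livers, against 191, 76.6 and 72.6 FPKM in controls, with 7 of 9 tested and 0 called (0 at an unadjusted p under 0.05). Clec4f, which defines these resident macrophages, was at 20.8, 9.78 and 2.83 FPKM in DEN+CCl4 livers and 40.5, 24.0 and 18.6 FPKM in controls. C1qa, a complement gene of macrophages, averaged 23.4 ± 16.3 FPKM in DEN+CCl4 livers and 29.7 ± 18.5 FPKM in controls (SD, n = 3 each), and C1qb 24.1 ± 6.19 and 24.0 ± 14.3 FPKM in the same groups. Of the 9 Kupffer cell genes, 2 were below all controls in every DEN+CCl4 liver and 0 above, against 4.03% and 3.8% of all genes. After median-ratio scaling the counts were 1 and 0, against 4.6% and 7.63%. Timd4, below in both, was at 0.24, 0.25 and 0.05 FPKM in DEN+CCl4 livers and 1.83, 0.96 and 0.76 FPKM in controls. Marco was at 0.56, 0.37 and 0.51 FPKM in DEN+CCl4 livers and 3.39, 0.97 and 0.61 FPKM in controls. The part of blood content or of other immune cells in the immunoglobulin levels was not tested.

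Variable segments were low throughout: the highest value of any of the 123 was 3.94 FPKM. Summed Igkv FPKM came to 21.9, 44.6 and 16.6 in the DEN+CCl4 livers, against 15, 10.1 and 10.2 in the controls. Summed Ighv FPKM came to 2.20, 6.55 and 8.16 in DEN+CCl4 livers, against 3.22, 0.89 and 1.29 in controls, and Iglv to 2.37, 1.50 and 3.95, against 0.69, 0.79 and 0.42. The Igkv and Iglv sums did not overlap between groups, and the Ighv sums did. A finished transcript carries 1 variable segment and 1 constant region, yet the Igkv sum was 11.2%, 7.70% and 10.1% of Igkc in DEN+CCl4 livers and 19.5%, 10.9% and 13.7% in controls, over the 75 segments analysed. The Ighv sum was 7.36%, 9.98% and 18.5% of the heavy chain constant sum in DEN+CCl4 livers and 20.6%, 5.65% and 8.64% in controls.

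The leading segments are shown at the 3′ end of the germline coding sequence, with the codon of the conserved cysteine of the variable domain in capitals, because the bases after it begin the third hypervariable loop, where the joining takes place (GENCODE M21 on GRCm38). These are germline sequences and not those of rearranged transcripts in the samples. They lie at chr6:68631963-68632022 for Igkv10-96 and chr6:68736297-68736356 for Igkv19-93 (minus strand), chr6:70699008-70699067 for Igkv3-2 (plus strand), chr16:19085017-19085076 for Iglv1 and chr16:19260401-19260460 for Iglv2 (minus strand), and chr12:114583569-114583628 for Ighv1-9 and chr12:115757984-115758043 for Ighv1-72 (minus strand).
Igkv10-96: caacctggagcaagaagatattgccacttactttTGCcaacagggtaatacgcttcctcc
Igkv3-2: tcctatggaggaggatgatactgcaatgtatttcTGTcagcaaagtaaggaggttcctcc
Igkv19-93: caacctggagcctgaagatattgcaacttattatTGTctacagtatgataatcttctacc
Iglv1: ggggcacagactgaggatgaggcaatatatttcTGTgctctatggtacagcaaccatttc
Iglv2: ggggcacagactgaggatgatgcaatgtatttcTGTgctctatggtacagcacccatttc
Ighv1-9: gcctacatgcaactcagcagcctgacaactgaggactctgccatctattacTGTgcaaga
Ighv1-72: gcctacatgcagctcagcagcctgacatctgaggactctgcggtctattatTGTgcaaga
Iglv1 and Iglv2 are 96.3% identical over their coding sequence, and Igkv10-96 is 95.4% identical to Igkv10-94. Of the 50-base words of Ighv1-72, 92.5% occur in another annotated immunoglobulin gene, against 0.576% for Ighv1-9 and 0 for Igkv19-93. The median share was 23.3% over the Ighv and 28.1% over the Igkv segments, so the level of a single segment is uncertain where reads fit its copies equally well.

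Igkv10-96, the segment with the highest mean, was at 0.66, 3.06 and 1.57 FPKM in the DEN+CCl4 livers, against 0.87, 0 and 0.81 FPKM in the controls (log2 fold change 0.79, limma adjusted p = 0.640). Igkv3-2, among the segments nearest to Igkc, was at 1.01, 3.49 and 1.19 FPKM in DEN+CCl4 livers, against 0.35, 0.11 and 0.32 FPKM in controls. Its groups did not overlap (log2 fold change 1.11, limma adjusted p = 0.142), and it passed without DEN+CCl4 replicate 1 (1.32, limma adjusted p = 0.0402). Igkv3-2 cleared the filter of the gene test only through the DEN+CCl4 group, so that call carries no weight of its own. Igkv19-93 was at 0.78, 3.94 and 0.14 FPKM in DEN+CCl4 livers and 0.48, 0.35 and 0 FPKM in controls. Igkv4-68, named after its values were seen, was at 1.13, 1.96 and 0.59 FPKM in DEN+CCl4 livers and listed at 0 in all controls. It was the sole Igkv segment above 0 in all 3 DEN+CCl4 livers and in 0 controls.

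Iglv1 was at 1.89, 1.07 and 2.10 FPKM in the DEN+CCl4 livers, against 0.45, 0.79 and 0.31 FPKM in the controls (log2 fold change 0.82, limma adjusted p = 0.581). Iglv2 was at 0.35, 0.34 and 1.59 FPKM in DEN+CCl4 livers and 0.24, 0 and 0.11 FPKM in controls. Iglv3 was at 0.13, 0.09 and 0.26 FPKM in DEN+CCl4 livers and listed at 0 in all controls. For each of the 3 lambda segments every DEN+CCl4 value was above every control value, as for 3.8% of all genes. The 3 are not separate observations, since Iglv1 and Iglv2 are 96.3% identical and reads may have been assigned between them. Iglv3 was near 0 throughout. Iglv1 took 79.7%, 71.3% and 53.2% of the Iglv FPKM in DEN+CCl4 livers and 65.2%, 100% and 73.8% in controls.

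Ighv segments were lower still and shared by few libraries. Ighv1-9 was at 0, 1.77 and 0.53 FPKM in the DEN+CCl4 livers, against 0.11, 0 and 0.05 FPKM in the controls. Ighv1-72 was at 0, 0.18 and 1.31 FPKM in DEN+CCl4 livers and 0.39, 0 and 0.10 FPKM in controls. Ighv6-3 was at 1.49 FPKM in DEN+CCl4 replicate 2 and listed at 0 elsewhere. Ighv1-26 and Ighv5-17, named after their values were seen, were above 0 in all 3 DEN+CCl4 livers, at 0.12 to 0.52 FPKM, and listed at 0 in all controls. Of the 45 Ighv segments, 0 were above 0 in all 6 libraries and 26 were above 0 in 1 library only. The Ighv1 family, which holds 27 of the 45, took 78.2%, 66.1% and 54.9% of the Ighv FPKM in DEN+CCl4 livers and 71.4%, 48.3% and 83.7% in controls.

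**Figure D4:**
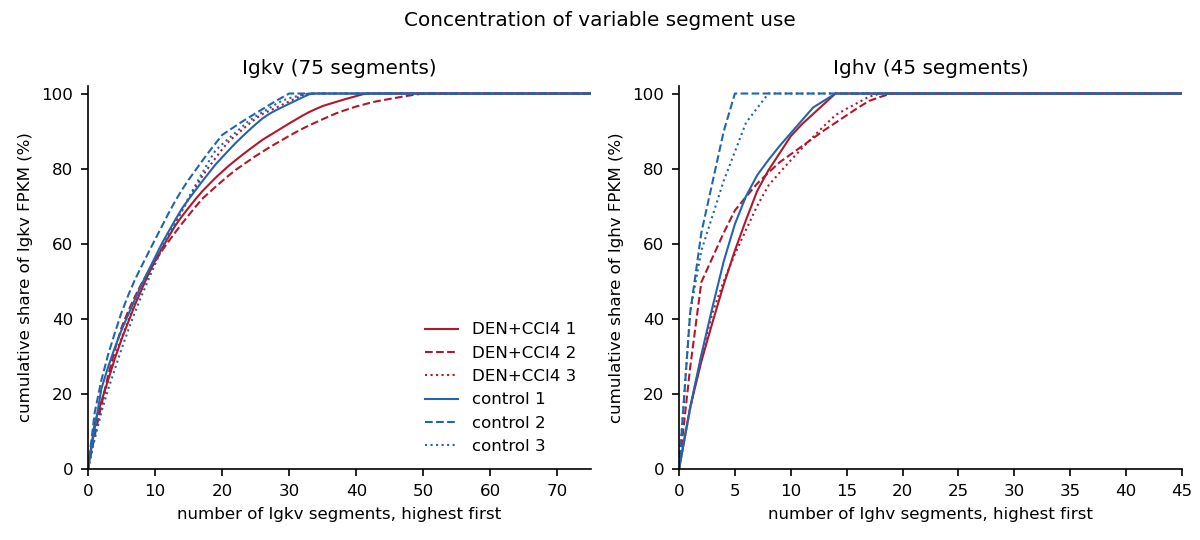
Cumulative share of Igkv FPKM (left) and Ighv FPKM (right) in percent, with segments added from the highest to the lowest in each library; DEN+CCl4 livers are in red, controls in blue, and line styles mark replicate numbers. The Igkv curves run close together, with 5 segments reaching 31.96% to 41.7% in every library, while the Ighv curves of control replicates 2 and 3 end at 5 and 8 segments.

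Use of kappa segments was spread widely in every liver. The number of the 75 Igkv segments above 0 was 42, 50 and 33 in the DEN+CCl4 livers, and 34, 30 and 33 in the controls, a count that also depends on depth. The effective number, the inverse of the summed squared shares, depends less on rare segments. It was 22.6, 23.7 and 22.3 for Igkv in DEN+CCl4 livers and 20.7, 17.3 and 23.0 in controls, and the groups overlapped. The top segment took 12.1%, 8.84% and 9.45% of the Igkv FPKM in DEN+CCl4 livers and 10.7%, 15.02% and 7.94% in controls. The top 5 took 34.5%, 37.7% and 34.9% in DEN+CCl4 livers and 37.0%, 41.7% and 32.0% in controls. No DEN+CCl4 liver was above the most concentrated control in either share.

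The identity of the top kappa segment changed from library to library. It was Igkv5-39 in DEN+CCl4 replicate 1 (2.66 FPKM), Igkv19-93 in replicate 2 (3.94 FPKM) and Igkv10-96 in replicate 3 (1.57 FPKM). In the controls it was Igkv6-17 in replicate 1 (1.61 FPKM), Igkv8-19 in replicate 2 (1.51 FPKM) and Igkv10-96 in replicate 3 (0.81 FPKM). Igkv8-21 was at 1.24, 0.46 and 0.39 FPKM in DEN+CCl4 livers and 1.6, 0.68 and 0.74 FPKM in controls, among the 3 highest segments in each control. In DEN+CCl4 replicate 2 Igkv4-53 stood at 3.66 FPKM, against 0 in the other DEN+CCl4 livers and 0 to 0.34 FPKM in controls. Only 8 of the 75 Igkv segments were above 0 in all 6 libraries, Igkv3-2, Igkv6-15, Igkv6-23 and Igkv8-21 among them. Another 18 were above 0 in DEN+CCl4 livers alone and 9 in controls alone, of 66 and 57 above 0 in any library of each group. The matching share over all genes was not computed. Of the 18, only 1 was above 0 in all 3 DEN+CCl4 livers, and 21 of the 75 were above 0 in 1 library only. These counts also depend on depth. Over all genes, 20214, 20634 and 16447 were above 0 in the DEN+CCl4 livers and 19521, 19938 and 19260 in the controls.

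For Ighv the effective number was 10.6, 6.91 and 11.2 in the DEN+CCl4 livers and 9.68, 3.77 and 4.27 in the controls, with overlap. Segments above 0 numbered 14, 19 and 18 in DEN+CCl4 livers and 14, 5 and 8 in controls. The top segment was Ighv1-56 in DEN+CCl4 replicate 1, Ighv1-9 in replicate 2 and Ighv1-72 in replicate 3, with 16.4%, 27.0% and 16.1% of the Ighv FPKM. In the controls it was Ighv1-80, Ighv3-6 and Ighv1-56, with 16.5%, 41.6% and 41.9%. In DEN+CCl4 replicate 2, Ighv1-9 and Ighv6-3 stood at 1.77 and 1.49 FPKM and the next segment at 0.43 FPKM. The higher shares of control replicates 2 and 3 rest on sums of 0.89 and 1.29 FPKM.

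**Figure D5:**
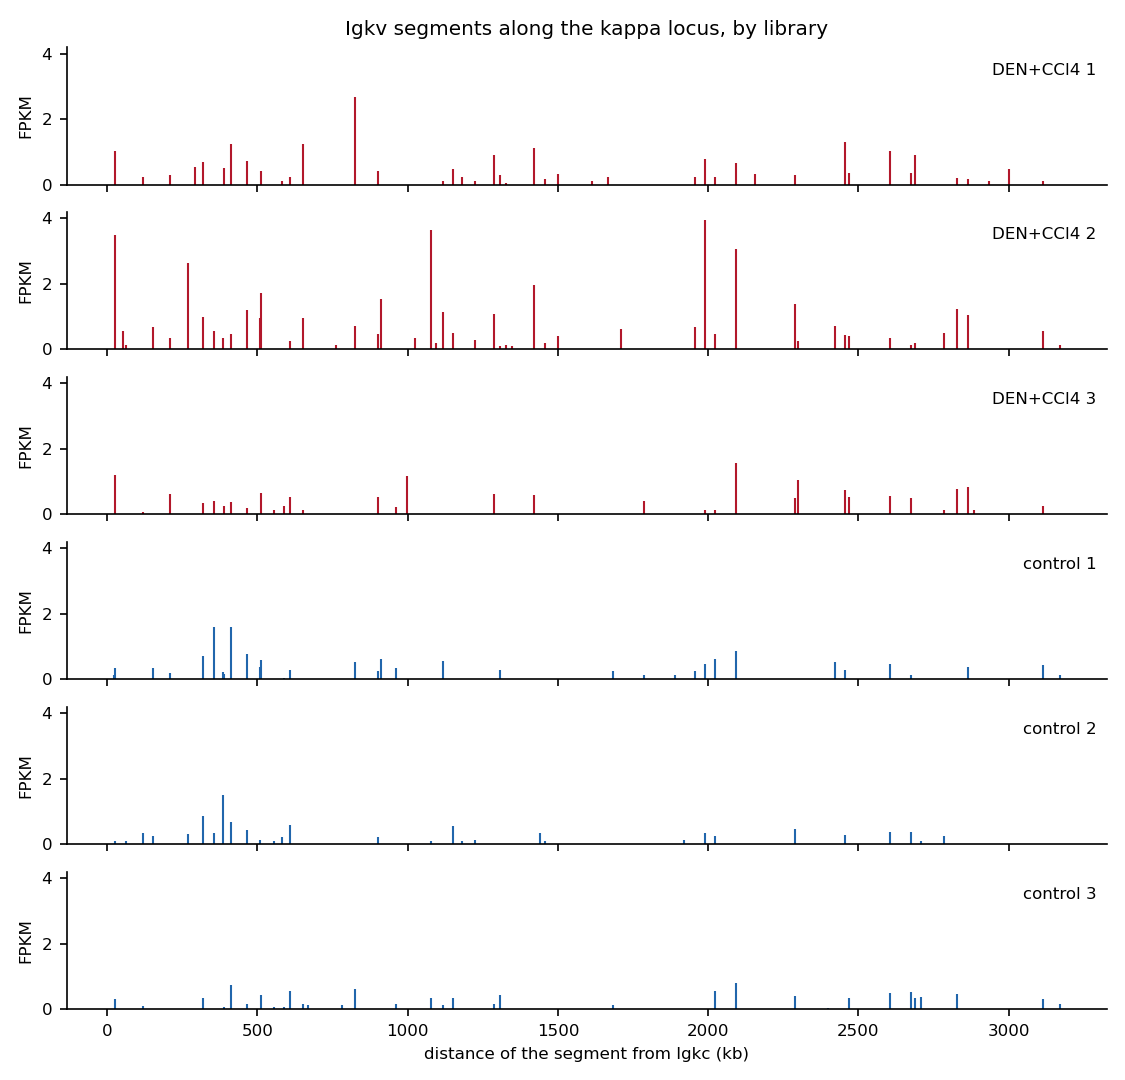
Level in FPKM (vertical axis, the same scale in all panels) of each of the 75 Igkv segments against its distance from Igkc in kb (horizontal axis), 1 panel for each library, DEN+CCl4 livers above and controls below. Segments above 0 are scattered along the locus in every library, and the tall lines of DEN+CCl4 replicate 2 have no counterpart of that height in the other livers.

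The Igkv segments analysed lie between 22.3 and 3170 kb from Igkc, 28 of 75 on the same strand as Igkc. The 38 segments nearest to Igkc took 55.3%, 57.1% and 46.8% of the Igkv FPKM in the DEN+CCl4 livers, and 64.1%, 70.3% and 48.3% in the controls. Segments on the strand of Igkc, which join by deletion and not by inversion, took 34.3%, 32.3% and 55.4% in DEN+CCl4 livers and 37.9%, 26.8% and 41.5% in controls. Both measures overlapped between the groups. By family, Igkv6 took 18.6%, 18.2% and 13.7% in DEN+CCl4 livers and 25.7%, 19.1% and 11.7% in controls. Igkv4, the family with the most segments analysed (21), took 20.0%, 25.8% and 7.22% in DEN+CCl4 livers and 8.87%, 14.6% and 14.7% in controls. Igkv8 took 7.24%, 4.55% and 6.44% in DEN+CCl4 livers, below the 16.5%, 32.0% and 13.2% of the controls. It was singled out after the family shares were seen.

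The promoters of variable segments are known for the octamer, the binding site of the Oct factors. Of the members, Jchain alone had a promoter window in the RefSeq table (250 bases before to 50 after the start, GRCm38). On either strand it held no octamer ATGCAAAT, which was in 1.74% of the 32851 windows of that length.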

How the data were processed

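Expression was measured in 6 liver libraries. Per the labels' protocols, 5 ug of total RNA (RIN above 7) went into poly(A) selection. The authors deposited FPKM, rounded to 2 decimals, with a column for every library. HISAT, StringTie and GRCm38 were used, per the submitters' processing notes. Tool versions, the annotation and strand handling were not given in the sources used here, so overlapping antisense reads cannot be told apart. Since FPKM is relative to a library's total, abundant transcripts lower all others. No counts and no depth were given, so no counting interval is possible.

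Members and lists were chosen with earlier results of these data known. Annotation and germline sequences came from GENCODE M21 on GRCm38, which held 25051 of the 25102 identifiers. Genes averaging 1 FPKM or more were compared on log2(FPKM + 1) by limma 3.58.1 (R 4.3.3; trended empirical Bayes, two-sided, without covariates), with Benjamini-Hochberg adjustment over the 8528 genes tested and a threshold of 0.05. The script was tested on simulated data. Constant genes, Jchain and ratios had an exact permutation test. Shares and effective numbers have no test. No 2 libraries held identical values. The alternatives were a pseudocount of 0.1, a filter at 5 FPKM or none, scaling each library by its median ratio to the gene-wise geometric mean, TPM, no trend, the replicate number as a block and leaving out each library; for shares, FPKM times exon length and other measures of concentration. Named were all constant genes and Jchain, the 3 highest segments of each locus and the top segment of each library, members past the threshold, and of each other list the members past it or the 2 highest. Further genes of the lists were named after their values were seen. Of the plasma cell list these were Prdm1, Tnfrsf17, Mzb1, Sdc1, Txndc5, Ell2, Pou2af1, Derl3, Irf4, Slamf7, Cd38 and Eaf2. Of the other lists they were Ms4a1, Tnfrsf13b, Clec4f, Timd4, Marco and Alas2. The segments Igkv4-53, Igkv8-21, Igkv6-15 and Igkv6-23 were also named after their values were seen. Other software was Python 3.11.15 with numpy 2.4.6, pandas 2.3.3, Biopython 1.88 and matplotlib 3.10.9.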

Additional observations from a re-analysis of the deposited data

How the results depend on the processing

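Without counts, a segment at 0 may be unread or absent, and a value near 0 has unknown precision. Limma called 71 genes higher and 55 lower. The counts were 6 and 3 with a pseudocount of 0.1, 14 and 53 with a filter at 5 FPKM, and 31 and 27 with TPM. They were 0 and 0 with no filter (519 and 550 at an unadjusted p under 0.05), with median-ratio scaling (468 and 446), without the trend (131 and 365), and with median-ratio scaling and without DEN+CCl4 replicate 3 together, added after seeing the data (354 and 226). Leaving out 1 library gave 0 to 109 higher and 0 to 270 lower, with 0 of each without DEN+CCl4 replicate 3 (522 and 139 at an unadjusted p under 0.05). Of the immunoglobulin genes, 1 was called higher with all libraries. The count was 0 with a pseudocount of 0.1 (4 at an unadjusted p under 0.05), a filter at 5 FPKM (0), no filter (16), median-ratio scaling (7), TPM (3), no trend (5) and median-ratio scaling without DEN+CCl4 replicate 3 (6). With 1 library left out it was 0 to 3: 3 without DEN+CCl4 replicate 1, 1 without replicate 2 and 0 without replicate 3 or any control, and 0 were called lower in any setting. The cause of these changes was not tested.

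With the replicate number as a block, 62 genes were higher and 32 lower, and 1 immunoglobulin gene, Ighg3, was higher. Deviations from the group means correlated at 0.07, 0.42 and -0.15 across genes for same-numbered libraries 1, 2 and 3, so the numbers were not read as pairs. Igha turned to -0.087 on the log2 scale without DEN+CCl4 replicate 2 (range -0.087 to 1.23 over libraries left out). Iglc3, near no change, turned to -0.083 with a pseudocount of 0.1, to -0.039 with TPM and to -0.21 at the lowest of a range up to 0.33 with 1 library left out. Jchain was 0.377 FPKM higher in DEN+CCl4 liver as deposited and 0.967 after median-ratio scaling. The effective number of Igkv segments was 2.51 higher in DEN+CCl4 liver and 8.24 higher over segments at 0.5 FPKM or more. It was 0.988 higher without control replicate 2 and 3.86 higher without control replicate 3. For Ighv it was 3.69 higher, and 5.57 higher without control replicate 1. That limit left a control with no Ighv segment, so it gave no value there.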
